A study of Homo sapiens with 3 samples.

Results

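Enamel and dentin are mineralised on scaffolds of secreted, acidic or proline- and glutamine-rich phosphoproteins, most of which belong to the secretory calcium-binding phosphoprotein family and are encoded in clusters on human chromosome 4. The 8 genes described here are AMTN, ODAPH, ODAM, AMBN and ENAM, whose products are secreted by ameloblasts, and DSPP, DMP1 and MEPE, whose products are secreted by odontoblasts and bone cells. They were taken by gene symbol from the 17185 named genes of an expression array series, which measures RNA and not protein, and each of the 8 was read by 1 probe set. The genes were chosen by their intensities on these same 3 arrays, seen beforehand, so their levels and differences are a description with no test.

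The arrays were hybridised with total RNA of MNNG/HOS, an osteosarcoma line of human origin kept in serum-free DMEM/F12 medium. The spheres that formed without treatment in the first 5 days had been removed from all 3 cultures, which started from the adherent cells left behind. One culture had no added factor for 5 days (untreated), one was given the cytokine TGF-beta1 (transforming growth factor beta 1) for 3 days at a dose of 4 ng/mL (day 3), and one had the same dose for 5 days, of which only the floating spheres were collected (day 5 spheres). Treatment and the fraction collected differ together between spheres and untreated cells and cannot be told apart. Days of culture also differ at day 3, and the labels do not give the fraction collected then. There was 1 array per culture, so no test and no error between samples could be given. In such bulk RNA a larger share of expressing cells and more RNA per cell cannot be told apart.

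Values are the deposited linear intensities, and a gene is called higher or lower where 2 arrays differ at least 2-fold, a log2 difference of 1. Median intensities of the arrays lay between 437 and 455. The lower quartile of all gene values was an intensity of 63.4 and the median was 685. Among genes with more than 1 probe set and a mean level above that median, the sphere-minus-untreated differences of the probe sets of 1 gene lay apart by a median of 0.167 in log2, against 0.404 for genes in the lowest quartile. For genes between the lower quartile and the median, where the mean level of ODAPH lies, it was 0.333. In spheres minus day 3 the median was 0.153 above the median level, 0.353 between the 2 levels and 0.356 in the lowest quartile. There 7.99%, 15.9% and 6.01% of genes, in that order, had probe sets at least 1 apart in log2. Differences of genes below the median level are therefore less certain than those above it.

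AMTN and ODAPH, both genes of the maturation stage of enamel, were far higher in the day 5 spheres than in untreated cells, while the other 6 genes differed less than 2-fold in every comparison. AMTN was 59.1-fold and ODAPH 17.2-fold higher, the third and the tenth highest differences of 17185 genes. Over all named genes 4.90% were at least 2-fold higher in this comparison, against 2 of the 8 genes here. None of the 8 was at least 2-fold lower, where 5.00% of all genes were.

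AMTN encodes amelotin, a secreted protein of maturation-stage ameloblasts and of the epithelium that attaches the gum to the tooth, where it lies in a basal lamina against the enamel. Its intensity was 100.9 in untreated cells, 543 at day 3 and 5960 in the spheres. The level thus stood above that of 30.5% of genes in untreated cells, 47.2% at day 3 and 86.9% in the spheres. Day 3 was 5.38-fold above untreated cells, a log2 difference of 2.43, and the spheres were 10.98-fold above day 3, a difference of 3.46. AMTN was higher at both steps, which 38 of 17185 genes (0.221%) were at 2-fold.

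ODAPH, once named C4orf26, encodes a small acidic phosphoprotein that can promote hydroxyapatite growth, and loss of it causes a hypomature form of amelogenesis imperfecta. Its intensity was 87.0 in untreated cells, 134 at day 3 and 1500 in the spheres. Most of its difference lay in the second step. Day 3 was 1.54-fold above untreated cells, short of 2-fold, while the spheres were 11.2-fold above day 3, a log2 difference of 3.49. Among all genes the spheres-over-day-3 differences of ODAPH and AMTN ranked the eighth and the tenth, and 5.78% of all genes were at least 2-fold higher in that comparison. At day 3, 1 of the 8 genes was past 2-fold, AMTN, against 5.77% of all genes higher. None was at least 2-fold lower at day 3 than in untreated cells or in the spheres than at day 3, where 5.26% and 4.72% of all genes were.

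**Figure D1:**
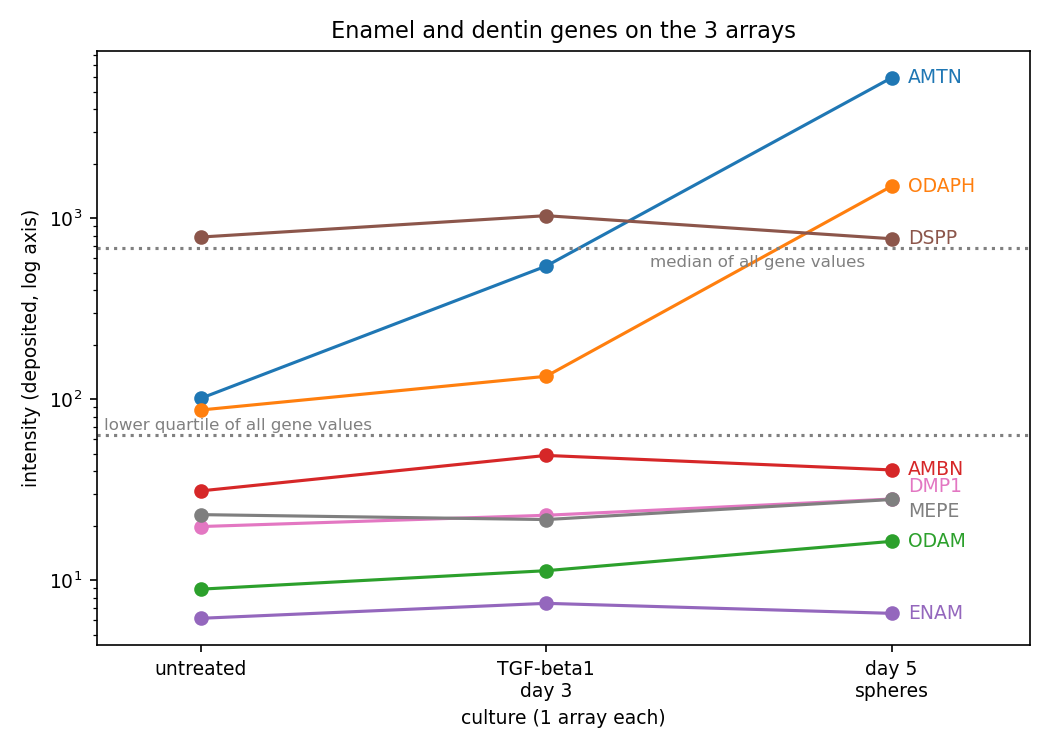
Deposited intensity (log axis) of the 8 genes on the 3 arrays, with the lower quartile and the median of all gene values as dotted lines. AMTN and ODAPH start close together at 100.9 and 87.0 in untreated cells and reach 5960 and 1500 in the spheres, DSPP stays near the median, and the other 5 lie under the lower quartile on every array.

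The remaining ameloblast genes were at low levels on every array. ODAM, whose product binds amelotin in the same basal lamina, had 8.91 in untreated cells, 11.3 at day 3 and 16.4 in the spheres. The sphere value was 1.84-fold the untreated one, short of 2-fold, and even there only 8.72% of genes had a lower value. AMBN encodes ameloblastin, a matrix protein of the secretory stage by which ameloblasts attach to the forming enamel, and had 31.1, 48.8 and 40.6 in untreated cells, at day 3 and in the spheres. ENAM encodes enamelin, the largest protein of the enamel matrix, and had 6.15, 7.44 and 6.55 in the same order. Fewer than 1% of genes were lower than ENAM on each array, and whether its signal exceeded background is not known, since no detection calls were used.

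Among the dentin and bone genes DSPP had the only level near the middle of the array. It encodes a precursor that is cut into dentin sialoprotein and dentin phosphoprotein, and its intensity was 786 in untreated cells, 1031 at day 3 and 769 in the spheres. The 3 values lay within 1.34-fold of each other, with day 3 the highest. A long stretch of the DSPP coding sequence is a serine and aspartate repeat, and where on the transcript the probes lie was not analysed here. DMP1, an acidic protein of dentin and osteocytes that also acts on phosphate balance, had 19.8, 22.8 and 28.1 in untreated cells, at day 3 and in the spheres. MEPE, an osteocyte protein whose cleaved acidic peptide inhibits mineralisation, had 23.0, 21.6 and 27.9.

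Altogether 5 of the 8 genes were below the lower quartile on all 3 arrays, at intensities between 6.15 and 48.8, and the farthest log2 difference among them was 0.88, that of ODAM. The median log2 difference over the 8 was 0.37 at day 3, 0.45 in the spheres and 0.33 for spheres over day 3. Over all genes it was -0.01, 0.01 and -0.04 in that order. Over a list of 16 other secretory calcium-binding phosphoprotein genes, in which SPARC and SPARCL1 were counted, it was 0.34, 0.09 and -0.275. The day 3 median was therefore not particular to the 8. Only AMTN, ODAPH and DSPP reached the median level of 685 on any array, and AMTN and ODAPH did so through the spheres alone. The day 3 and sphere differences share the untreated array and are no repeat of each other.

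**Figure D2:**
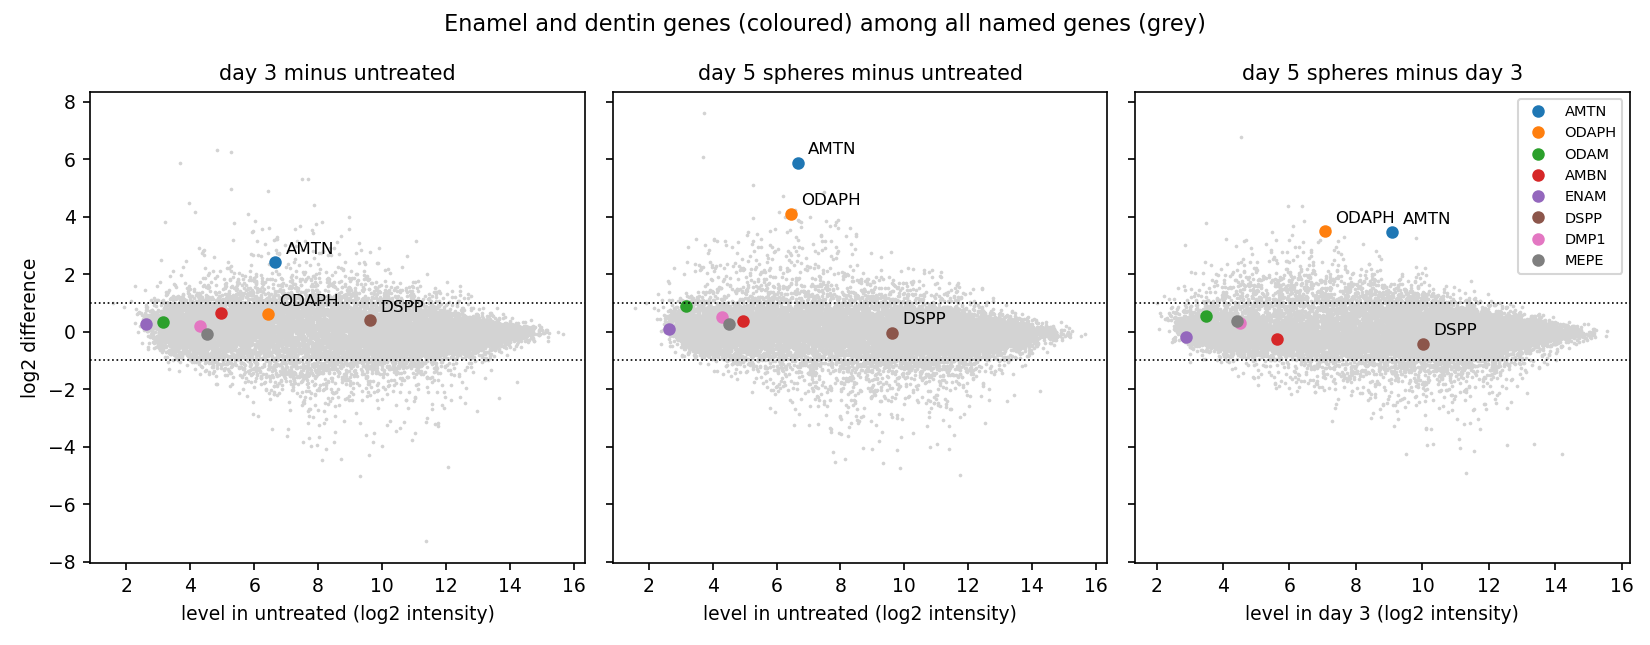
Log2 difference of every named gene (grey) against its log2 level on the second named array, for the 3 comparisons, with the 8 genes in colour and dotted lines at 2-fold. AMTN and ODAPH stand near the upper edge of both sphere comparisons at log2 differences of 3.46 to 5.88, while the other 6 lie between the dotted lines in all panels.

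The steps of AMTN were matched most closely by SYNDIG1, FLRT2, LRFN5, DNAJC12 and ODAPH, by the Euclidean distance between log2 values centred on their mean over the 3 arrays. The distances were 0.90 for SYNDIG1, a synapse protein gene, 1.05 for FLRT2, 1.23 for LRFN5, 1.43 for DNAJC12 and 1.46 for ODAPH. FLRT2, a membrane protein gene, had 214.9 in untreated cells, 1075 at day 3 and 5024 in the spheres, the nearest of these to AMTN in level at day 3 and in the spheres and the farthest in untreated cells. For ODAPH the nearest was DNAJC12, a co-chaperone gene, at a distance of 0.10, with 95.3, 145 and 1778 in untreated cells, at day 3 and in the spheres. BAALC, CDH3, SYNDIG1 and LRFN5 followed at 0.42 to 0.61, and AMTN ranked 73 from ODAPH. ODAM was matched within 0.02 by HMGCS1, DEFB136, STN1, PARP8 and ARRDC1. A likeness over 3 arrays separates genes poorly, and these lists describe the 3 cultures only.

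The 8 genes all lie on chromosome 4, in the order ODAM, AMTN, AMBN, ENAM, ODAPH, DSPP, DMP1 and MEPE in assembly GRCh38.p14, where AMTN, AMBN and ENAM are direct neighbours among protein-coding genes, as are DSPP and DMP1. The genes directly beside AMTN and ODAPH showed far smaller differences, most of them at low levels. AMBN, next to AMTN on one side, differed by a log2 value of 0.38 between spheres and untreated cells, and MUC7, a salivary mucin gene on its other side, by 0.12 at intensities of 6.99 in spheres and 6.45 in untreated cells. THAP6 and CDKL2, on either side of ODAPH, differed by 0.00 and 0.47. AMBN, MUC7 and CDKL2 were under the lower quartile on every array, where a missing difference says little. Only THAP6 was well above it, at 1603 in spheres and in untreated cells.

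Taking 3 protein-coding genes on each side of each of the 8 gave 25 other genes, 23 of them with a value. Their median sphere-minus-untreated difference was 0.01. Of the 23, 4 were past 2-fold upward and 1 downward, beside 4.90% and 5.00% of all genes. The higher ones were HTN1 and HTN3, which encode salivary histatins, CSN3, the kappa-casein gene, and RUFY3, and the lower one was the drug transporter gene ABCG2. HTN1 had 35.1 in spheres and 8.68 in untreated cells, and HTN3 had 19.7 and 6.16 in the same order. Both stayed under the lower quartile of 63.4, and as near-identical copies the pair may share signal. RUFY3, with 1451 in spheres and 628 in untreated cells, was the only one of the 4 to reach the median level.

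**Figure D3:**
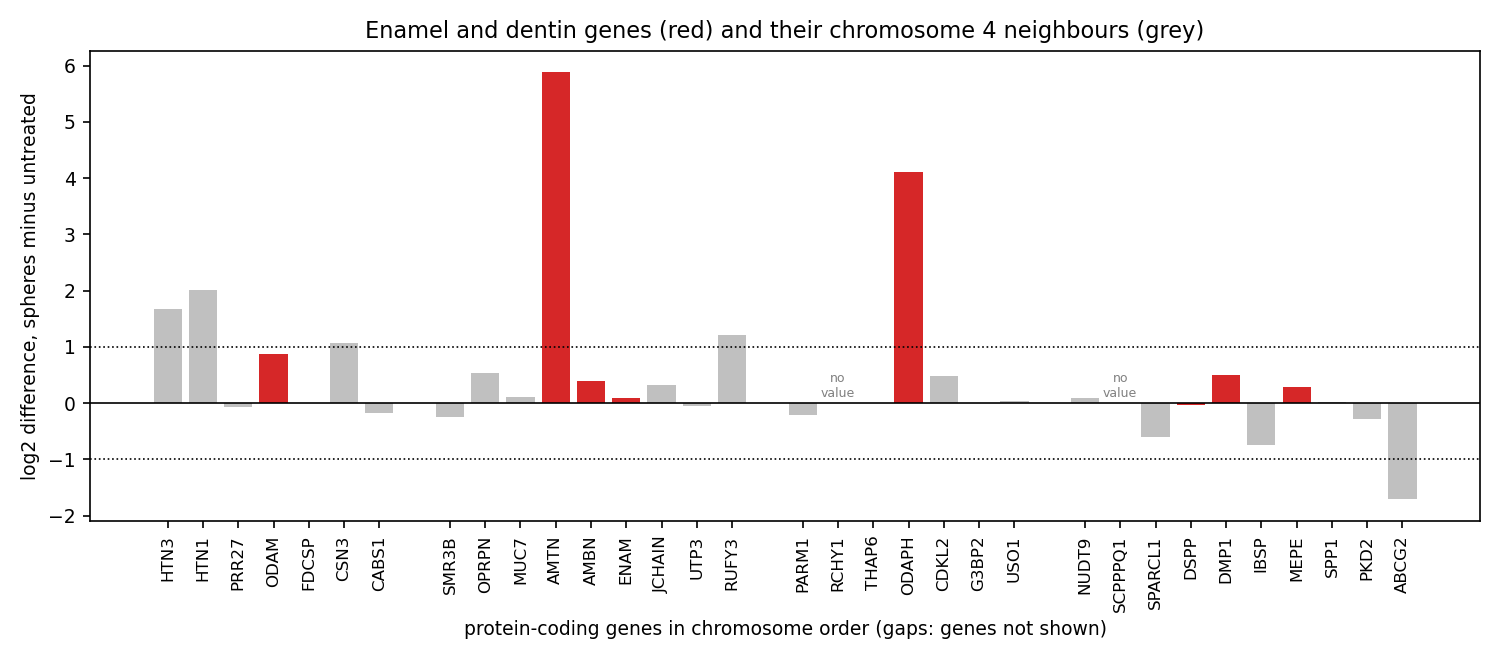
Log2 difference between day 5 spheres and untreated cells for the 8 genes (red) and the protein-coding genes around them (grey) in chromosome order, with dotted lines at 2-fold. AMTN at 5.88 and ODAPH at 4.11 rise from neighbours that lie between -1.71 and 2.01.

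The rest of the secretory calcium-binding phosphoproteins, from a list of milk, saliva, bone and enamel genes, showed no difference of that size. SPARC and SPARCL1 were counted in that list. The median log2 difference between spheres and untreated cells was 0.09 over the 16 with a value. Of these, 3 were at least 2-fold higher, HTN1, HTN3 and CSN3, and 0 lower, beside 4.90% and 5.00% of all genes. With 64 added to each intensity these 3 fell short of 2-fold, at log2 differences of 0.45, 0.26 and 0.49. SMR3A, a salivary gland protein gene, was 2.43-fold higher at day 3, at 147 against 60.6 in untreated cells, a log2 difference of 0.76 with that offset. AMELX, the gene of amelogenin, the main protein of young enamel, had 42.2, 73.2 and 52.5 in untreated cells, at day 3 and in the spheres. The bone genes of the same family went their own ways. SPP1, which encodes osteopontin, had 3436, 6601 and 3489, and IBSP, which encodes bone sialoprotein, had 52.6, 40.6 and 31.3, both in the order untreated, day 3, spheres.

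Of 19 genes of enamel formation, 4 were at least 2-fold lower in spheres than in untreated cells and 0 higher. Over all genes 5.00% were lower and 4.90% higher. FAM20C, the Golgi kinase that phosphorylates secreted proteins including those of enamel and dentin, had 880 in untreated cells, 409 at day 3 and 117 in the spheres. The sphere value was 7.49-fold lower than the untreated one, a log2 difference of -2.91, so its levels ran opposite to those of AMTN and ODAPH. Its value at day 3 was 2.15-fold lower than in untreated cells. LAMA3, which encodes a chain of the laminin of the basal lamina on enamel, had 57.3 in spheres and 495 in untreated cells, 8.64-fold lower. COL17A1, a hemidesmosomal collagen gene, was 2.04-fold lower in spheres, and STIM1, a calcium sensor of the endoplasmic reticulum, 2.15-fold lower. Of these 4 sphere differences those of COL17A1 and STIM1 fell short of 2-fold with 64 added to each intensity, at -0.58 and -0.94 in log2.

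The enzymes that remove enamel matrix proteins were at low levels. KLK4, the maturation-stage protease gene, had 12.4, 19.3 and 14.8 in untreated cells, at day 3 and in the spheres, and MMP20, the secretory-stage one, had 30.9, 21.2 and 26.5. At day 3 FAM20A, which encodes a partner of FAM20C, was 2.06-fold higher than in untreated cells, at 47.3 against 22.9, both under the lower quartile. In the other direction 4 of the 19 genes were at least 2-fold lower at day 3, LAMA3, LAMB3, COL17A1 and FAM20C, beside 5.26% of all genes. With 64 added to each intensity 3 of these day 3 differences fell short of 2-fold, at log2 values of 0.36 for FAM20A, -0.75 for COL17A1 and -0.995 for FAM20C. LAMB3, which encodes another chain of that laminin, was 3.01-fold lower at day 3 and 2.371-fold higher in spheres than at day 3.

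Among 16 genes that set phosphate, pyrophosphate and mineral growth, 3 were at least 2-fold higher in spheres than in untreated cells. By that much 2 were lower, beside 4.90% higher and 5.00% lower among all genes. The higher ones were ENPP1, which makes the mineralisation inhibitor pyrophosphate, at 2.57-fold, ANKH, which exports ATP and raises extracellular pyrophosphate, at 2.86-fold, and BMP1, a protease that cuts procollagen and several matrix phosphoproteins, at 2.16-fold. FAM20C and GALNT3, a glycosyltransferase gene, were the lower ones. BMP1 was at 0.97 in log2 by its brightest probe set alone, and GALNT3 at -0.53 with 64 added to each intensity, both short of 2-fold. ANKH and BMP1 were already 2.91-fold and 2.26-fold above untreated cells at day 3. Their log2 differences between spheres and day 3 were -0.02 and -0.07. In that comparison 1 of the 16 was at least 2-fold higher, MGP, at 255 against 93.2, or 2.74-fold. FAM20C was the 1 gene lower, at 3.49-fold. Over all genes 5.78% were higher and 4.72% lower there. ALPL, the alkaline phosphatase that breaks pyrophosphate down, stayed low at 45.8, 69.6 and 76.4 in untreated cells, at day 3 and in the spheres. PHEX and FGF23, both of the phosphate pathway in which DMP1 and MEPE take part, differed less than 2-fold in all 3 comparisons.

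Tooth and bone transcription factors had 2 of 20 genes at least 2-fold higher in spheres than in untreated cells and 0 lower. The shares over all genes were 4.90% and 5.00%. LEF1, a Wnt effector needed for tooth buds, had 6776 in spheres and 2075 in untreated cells, and the homeobox gene DLX5 had 1030 and 486 in the same order, which with 64 added to each intensity was a log2 difference of 0.99. At day 3 the same pair was at least 2-fold higher than in untreated cells, where 5.77% of all genes were higher and 5.26% lower. MEF2C, a transcription factor gene of muscle and bone, was 3.63-fold lower at day 3. It had 1327, 366 and 702 in untreated cells, at day 3 and in the spheres. Between spheres and day 3 the homeobox gene DLX2 was 2.74-fold higher, at 947 against 345. KLF4 was the 1 gene at least 2-fold lower, at 691 against 1422, which was -0.98 in log2 with 64 added to each intensity. Over all genes 5.78% were higher and 4.72% lower in that comparison. RUNX2, the master factor of bone that also acts in tooth development, had 4000, 4818 and 3246 in untreated cells, at day 3 and in the spheres. SP6, an ameloblast factor, stayed low at 76.1 to 92.0. SMAD3, a signal carrier of TGF-beta, had 2843 in spheres and 7296 in untreated cells, 2.57-fold lower. SMAD2 and SMAD4 and both receptors differed less than 2-fold. TGFB1, the gene of the cytokine itself, was 2.07-fold higher at day 3 than in untreated cells, at 11310 against 5454, and 1.66-fold higher in spheres. Of 9 integrin and CD44 genes for receptors of such matrix proteins, 1 was at least 2-fold higher in spheres, beside 4.90% of all genes. It was ITGB3, at 117 against 58.1, a log2 difference of 0.57 with 64 added to each intensity. The widest difference of that list was in ITGB8, which had 118 in untreated cells, 358 at day 3 and 110 in the spheres, so day 3 was 3.03-fold above untreated cells and the spheres were 3.25-fold below day 3.

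**Figure D4:**
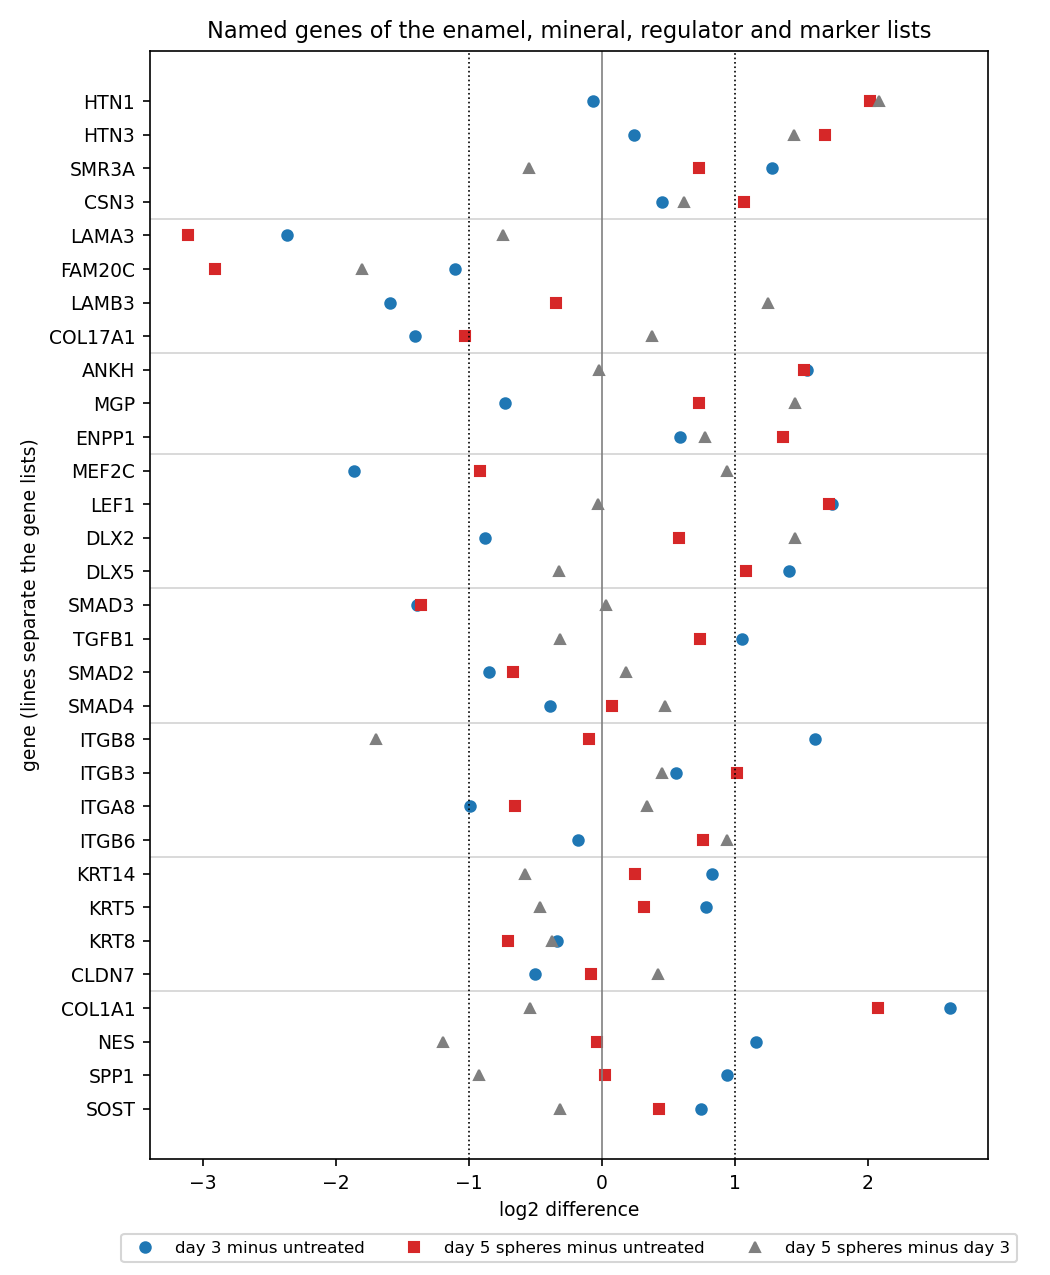
Log2 differences in the 3 comparisons for the genes of each list with the widest difference in any of them, with dotted lines at 2-fold. FAM20C and LAMA3 reach -2.91 and -3.11 in spheres minus untreated, and the 4 epithelial markers lie between the dotted lines.

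AMTN, ODAPH and ODAM are known from epithelial cells, so epithelial markers were set beside them. Of 10 markers 0 were past 2-fold in any of the 3 comparisons. Over all genes only 4.72% to 5.78% were, by direction and comparison, so 0 of 10 says little. Their summed intensity was 51426 in untreated cells, 45706 at day 3 and 35180 in the spheres, nearly all of it from the keratin genes KRT8 and KRT18. The cadherin gene CDH1 had 10.04, 8.59 and 9.28 on the same arrays, ESRP1 and GRHL2, both epithelial regulators, stayed at 21.0 to 28.9, and EPCAM was at 1509, 1435 and 1320. Genes of epithelial adhesion outside that list differed in both directions. CDH3, the P-cadherin gene, and DSP, the desmoplakin gene, named here after their values were seen, were higher at both steps. In spheres they stood 3.85 and 3.59 in log2 above untreated cells. LAMA3 and COL17A1, of the enamel formation list, were lower in the same comparison, at log2 differences of -3.11 and -1.03. The part of these genes in the differences of AMTN and ODAPH was not tested. Of 8 bone lineage markers 5 reached the median level on every array, including RUNX2, COL1A1 and VIM, while SP7, ALPL and COL1A2, also defining markers, did not. COL1A1 and COL1A2, both collagen I genes, were the 2 of the 8 past 2-fold in spheres, at 4.22-fold and 6.18-fold above untreated cells. Over all genes 4.90% were higher by at least 2-fold.

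AMTN and ODAPH were both far higher in spheres than at day 3, and the 250 bases before each transcript start were read from the RefSeq promoter table of GRCh38.p14, which matched all 8 genes, and searched on both strands for 4 motifs of TGF-beta and bone factors. The windows from 150 bases upstream to the start follow, 5′ to 3′ on the plus strand, with matches in capitals: the SMAD box CAGACA, which reads TGTCTG where it lies on the other strand, the RUNX motif TGTGGT and the AP-1 motif TGACTCA. The fourth motif, GGCGC, had no match in either.
AMTN promoter, chr4:70518419-70518568: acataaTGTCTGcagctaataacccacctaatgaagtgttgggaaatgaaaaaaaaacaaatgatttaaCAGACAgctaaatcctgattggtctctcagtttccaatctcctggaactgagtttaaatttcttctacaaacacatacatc
ODAPH promoter, chr4:75555916-75556065: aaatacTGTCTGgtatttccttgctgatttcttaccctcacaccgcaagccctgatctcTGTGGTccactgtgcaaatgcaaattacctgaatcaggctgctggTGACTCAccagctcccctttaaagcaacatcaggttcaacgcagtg
The matches shown do not overlap one another. AMTN held 3 SMAD boxes, at -225, -144 and -81 from the start by their first base, the first of them outside the printed stretch. ODAPH held 1 SMAD box at -144, 1 RUNX motif at -91 and 1 AP-1 motif at -46.

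These motifs are short and common. Of 35116 promoter windows 13.6% held a SMAD box, 10.98% a RUNX motif, 4.20% the AP-1 motif (TGACTCA, or TGAGTCA on the other strand) and 44.5% the SMAD GC motif GGCGC. Among the 8 genes the SMAD box was found in AMTN, ODAPH, ODAM and MEPE, the RUNX motif in ODAPH, DMP1 and MEPE, the AP-1 motif in ODAPH alone and GGCGC in MEPE alone. ODAM and MEPE were under the lower quartile on every array, and any part of the motifs in the differences was not tested. A match is a run of letters and not a shown binding site.

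A second pattern was noticed in the sequences themselves and was searched afterwards. In 6 of the 8 genes a reversed CCAAT box, TGATTGG, was followed within 100 bases by TTTAAA, a run that reads the same on both strands. The pair was searched on the strand of the gene only, and 30 of 35116 windows (0.0854%) held it. The 6 stretches are printed 5′ to 3′ on the plus strand with both boxes in capitals, to show how alike they are.
ODAM, chr4:70195664-70195704: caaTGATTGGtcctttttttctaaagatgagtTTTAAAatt
AMTN, chr4:70518500-70518548: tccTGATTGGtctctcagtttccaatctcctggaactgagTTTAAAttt
AMBN, chr4:70592204-70592233: cttTGATTGGtggattggcacTTTAAAtaa
DSPP, chr4:87608469-87608509: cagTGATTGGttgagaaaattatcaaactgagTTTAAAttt
DMP1, chr4:87650218-87650257: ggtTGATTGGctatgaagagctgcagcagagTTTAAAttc
MEPE, chr4:87832906-87832945: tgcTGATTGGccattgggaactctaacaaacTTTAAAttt
The gap between the boxes was 21 or 22 bases in ODAM, DSPP, DMP1 and MEPE, 30 in AMTN and 11 in AMBN. For MEPE the pair stood before the second of 2 listed starts.

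TTTAAA began between 35 and 20 bases before a start in 7 of the 8 genes, all but ENAM, and in 1.38% of all windows. That range was also set after the sequences were seen, so the contrast is no test. The 8 are counted by gene, and a gene can have more than 1 window. ENAM held the CCAAT box at -73 with no TTTAAA after it, and ODAPH held TTTAAA at -29 without the CCAAT box, CCAATCA on the other strand, which 6.62% of windows held on either strand. Any part of the box pair in the differences on the arrays was not tested. AMTN had it and was 59.1-fold higher in spheres than in untreated cells, and ODAPH lacked it and was 17.2-fold higher. ODAM, AMBN, DSPP, DMP1 and MEPE had it and differed less than 2-fold. Of these all but DSPP were under the lower quartile on every array, where a missing difference says little. Outside these genes 24 more held the pair, and the 17 with a value had a median sphere-minus-untreated log2 difference of -0.12. Of the 17, 1 was at least 2-fold higher in spheres, RPS6KA2, and 1 lower, CHAC1, beside 4.90% and 5.00% of all genes. Of 15 genes in the promoter table from the list of other secretory calcium-binding phosphoproteins, 0 held it.

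**Figure D5:**
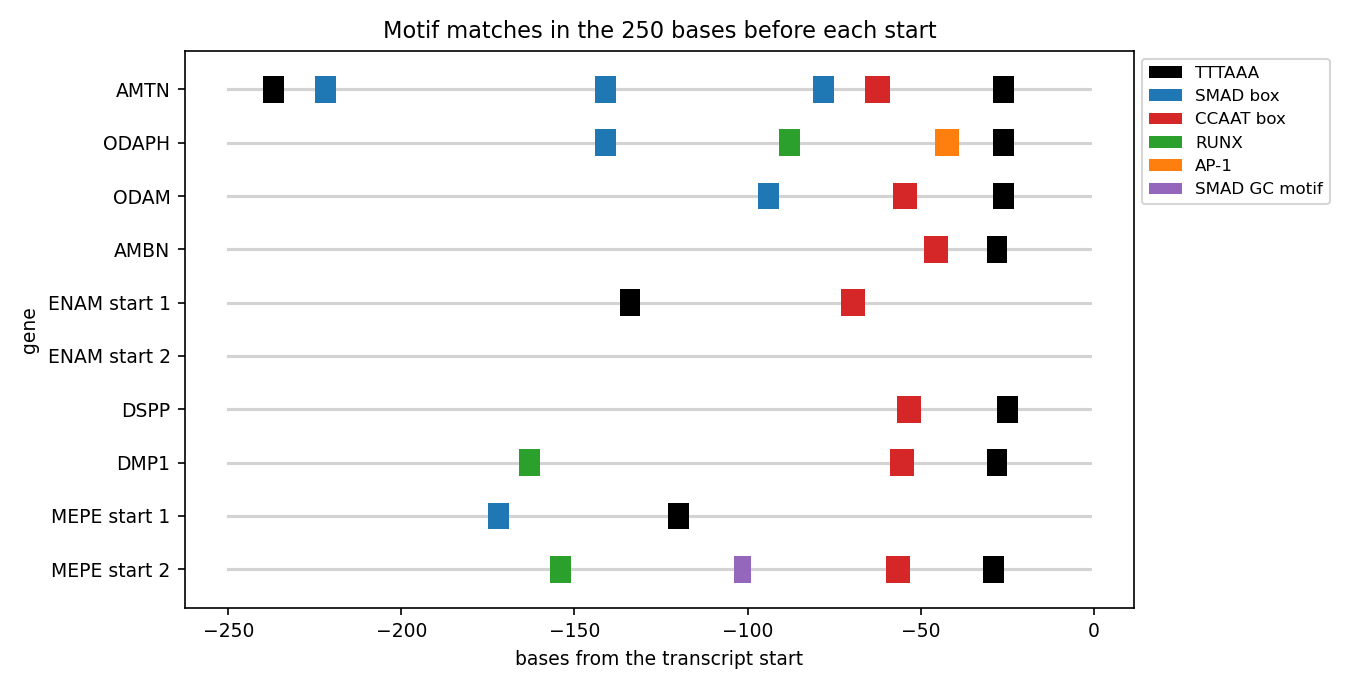
Matches of 6 motifs along the 250 bases before each listed transcript start of the 8 genes, as distance in bases from the start. The CCAAT box (red) and TTTAAA (black) stand at similar distances in ODAM, AMTN, AMBN, DSPP, DMP1 and the second start of MEPE, while the SMAD boxes (blue) of AMTN lie farther upstream at -225, -144 and -81.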

How the data were processed

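Each of 3 RNA samples was labelled with Cy3 for 1 array, per the labels. The authors deposited 1 linear intensity per probe set, which the submitters' processing notes credit to RMA; its version and the scanner were not given in the sources used here. RMA makes the distributions of arrays alike, which hides a change shared by most genes. No detection calls were used, so background at low intensity is unknown, and 1 array per group limits the precision.

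Intensities were converted to log2 without an added offset. The platform table, with symbols updated by gene identifier, named 18188 of 45033 probe sets, RefSeq accessions named 678, and 26167 stayed unnamed. A gene's value was the mean over its probe sets. Differences were called at 2-fold, with no test.

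Members and lists were chosen with earlier results of these data known. One gene of the enamel formation list is not reported here and is left out of that list's counts. Named in the text or shown in a figure were all members and the 4 genes per list with the widest difference. Genes counted in the text, 3 protein-coding neighbours a side, and the 5 nearest profiles of the 3 members with the widest range were added. Alternatives were other probe set summaries, scalings, offsets, folds, level filters and platform names only. Python 3.11.15, numpy 2.4.6 and pandas 2.3.3 were used.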

Additional observations from a re-analysis of the deposited data

How the results depend on the processing

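Of 228 recomputed differences of the 8 genes, 0 changed sign after a call, 0 fell below the fold used and 3 passed it. All 3 were at 1.5-fold: ODAPH and AMBN at day 3 and ODAM in spheres against untreated cells. Many of the 228 could not move. Each of the 8 has 1 probe set, so other probe set summaries return the same value, and the fold and level settings reuse the main differences. These counts are therefore no measure of how firm the differences are. The count of genes higher at day 3 was then 3 instead of 1, at a threshold that 15.3% of all genes passed upward at day 3 and 12.3% in spheres against untreated cells. With only genes that reach the upper quartile on any array, 1 of the 8 remained, AMTN. The count higher in spheres was then 1 against untreated cells and 1 against day 3, where it was 2 each, because fewer genes entered. AMTN reached that level of 3186 through the spheres alone, so its count under this filter was fixed in advance and is no support. Adding 64 to each intensity brought AMTN to a log2 difference of 5.19 and ODAPH to 3.37 in spheres against untreated cells, and ODAM to 0.14. Of 1044 recomputed differences of the other named genes, 54 fell below the fold used, 28 passed it and 0 reversed. Centring each array moved the median difference of all genes by at most 0.06. Low intensities limit what can be said of ODAM, AMBN, ENAM, DMP1 and MEPE. No paired analysis was possible because each group has 1 array.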
